A study of Homo sapiens with 4 samples.

Results

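The genes described here are the human genes named ZNF plus a number, most of which encode zinc finger proteins of the C2H2 class. They were chosen by symbol (ZNF, digits and at most 1 further letter) and by a mean raw count of at least 200 over the 4 count tables. Of 28063 genes in the tables, 533 had such a symbol and 254 reached the mean. The mean count was the value that chose them, and it was taken over both groups together, so the difference between the groups was not used. Their mean counts ran from 203 in ZNF446 to 6591 in ZNF664, with a median of 421, and the lowest count of a member in any library was 100. All 254 passed the filter on low counts and were tested. The genes just above the threshold were ZNF446 with a mean count of 203.25 and ZNF133 and ZNF724 with 203.75 each. Those just below it were ZNF44 with 198.25, ZNF586 with 197.75 and ZNF189 with 197.25. Of the 279 ZNF symbols below the threshold, 255 had at least 1 read and 212 were tested. Of the 254, 4 had no coding sequence in the annotation used (ZNF271P, ZNF252P, ZNF767P and ZNF542P).

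Poly(A) RNA was sequenced from KELLY, a human neuroblastoma cell line with amplified MYCN. The cells carried a lentiviral vector for FLAG-tagged IWS1, a nuclear factor of RNA polymerase II elongation, and were selected with puromycin. The WT group expressed the wild-type protein and the M3 group a mutant in which TIM3, 1 of its short motifs that bind TFIIS N-terminal domains, was disrupted. There were 2 libraries in each group, and no label says whether they came from separate cultures or transductions, so the p-values measure the spread between these libraries. No label says that the cells' own IWS1 was removed, and the vector's promoter is not given in the sources used here.

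In a C2H2 zinc finger a pair of cysteines and a pair of histidines hold a zinc ion, and a row of such fingers reads bases in the DNA. In the largest class the protein starts with a KRAB domain, which binds TRIM28 (KAP1), and through it SETDB1 and HP1 proteins, so that many of these proteins silence transposable elements. KRAB zinc finger genes lie in clusters, above all on chromosome 19, and have multiplied by duplication, so that neighbours resemble each other. A further group without KRAB regulates neural development, promoters or RNA and ribosomes.

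The sequences below show the same protein motif in the KRAB gene with the largest rise in M3 (ZNF273), the gene without KRAB with the largest rise (ZNF518A) and the gene with the largest fall (ZNF581). Each finger is the first C2H2 match of the coding sequence in GENCODE release 29 (GRCh38), 63 bases or 21 codons, read 5′ to 3′ on the plus strand, with the codons of the 2 cysteines and 2 histidines in capitals. The KRAB core has the codons of 7 positions used to recognise the domain in capitals.
ZNF273 finger: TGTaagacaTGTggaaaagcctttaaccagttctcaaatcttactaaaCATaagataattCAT
ZNF518A finger: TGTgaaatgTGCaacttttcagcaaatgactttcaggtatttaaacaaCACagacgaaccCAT
ZNF581 finger: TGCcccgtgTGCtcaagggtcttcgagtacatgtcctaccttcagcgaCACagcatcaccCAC
ZNF273 KRAB core: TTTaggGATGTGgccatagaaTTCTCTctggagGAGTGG
The ZNF273 finger lies at chr7:64928034-64928096, in exon 4 of 4, and its KRAB core at chr7:64917593-64917631, in exon 2 of 4. The ZNF518A finger lies at chr10:96156776-96156838, in exon 6 of 6, and the ZNF581 finger at chr19:55644836-55644898, in exon 2 of 2. The fingers differ in base composition: G or C stands at the last codon position in 6 of 21 codons of ZNF273 (28.6%), 7 of 21 of ZNF518A (33.3%) and 18 of 21 of ZNF581 (85.7%). Over the whole coding sequence the GC content is 37.8% in ZNF273, 36.2% in ZNF518A and 62.4% in ZNF581.

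IWS1, the gene carried by the vector, had 370 and 394 TMM-normalised CPM (reads of the gene per 1000000 gene reads) in WT, against 596 and 599 in M3 (here and below, library 1 is given before library 2). Its log2 fold change was 0.65 ± 0.12 (SE, n = 2 and 2; edgeR adjusted p = 0.0225), and these counts do not separate the vector's transcript from the cells' own. Without M3 library 1 the adjusted p was 0.215, and without M3 library 2 it was 0.138. Gene counts ran from 12289685 to 20962372 per library. The share of reads that the counting assigned to no gene was 23.3% and 23.2% with WT, against 27.5% and 25.6% with M3. The features counted are not stated, so this share can include reads within genes. Markers of sympathetic neuroblasts, such as HAND2 and MYCN, summed to 6240 and 5900 CPM with WT, against 4800 and 4920 with M3. Of these 8 genes, 3 (PHOX2A, TH and DBH) were lower in M3, beside 6.63% of all genes tested. The part of these markers and of the unassigned reads in the ZNF differences was not tested. Glial markers summed to 4.13 to 6.88 CPM, fibroblast markers to 6.80 to 27.2, endothelial markers to 1.17 to 2.06, and haematopoietic and epithelial markers to under 2 in each library, with S100B and CD3E at 0. In bulk RNA, a lower share of cells with a transcript and a lower level per cell cannot be told apart.

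More ZNF genes rose than fell in M3. Of the 254 genes, 35 (13.8%) rose and 8 (3.15%) fell at an edgeR quasi-likelihood adjusted p below 0.05, and 211 did not pass. Over all 14141 genes tested, 15.8% were called, 9.16% higher and 6.63% lower. The median log2 fold change was 0.13 for the ZNF genes and -0.0065 for all genes tested, and 164 of the 254 values were positive. Groups did not overlap in 126 ZNF genes with M3 above WT, and in 60 with M3 below WT. Over all genes the shares were 34.0% (above) and 34.1% (below). At an unadjusted p below 0.05, 83 were higher and 25 lower, 42.5% of the ZNF genes beside 35.9% of all genes. None of the called ZNF genes reached a 2-fold change, which 353 of the called genes in the whole table did. Together the 254 genes took 0.941% and 1.08% of gene counts with WT, against 1.25% and 1.20% with M3, so the 2 groups' shares did not overlap. The counts of calls moved with the libraries used, over all genes as well: without WT library 1, 55 ZNF genes were higher and 14 lower (27.2%, beside 24.1% of all genes called in that fit). Without WT library 2 these were 99 and 41 (55.1%, beside 46.2%). Leaving out M3 library 1 gave 3 and 0 (1.18%, beside 2.47%), and leaving out M3 library 2 gave 18 and 2 (7.87%, beside 7.33%). Scaling by total counts moved the median of all genes from -0.0065 to 0.11 and that of the ZNF genes to 0.25, with 23 higher and 1 lower. It called 9.45% of the ZNF genes and 7.92% of all genes. The share of calls that were higher went from 81.4% to 95.8% in the ZNF genes and from 58.0% to 76.4% in all genes.

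**Figure D1:**
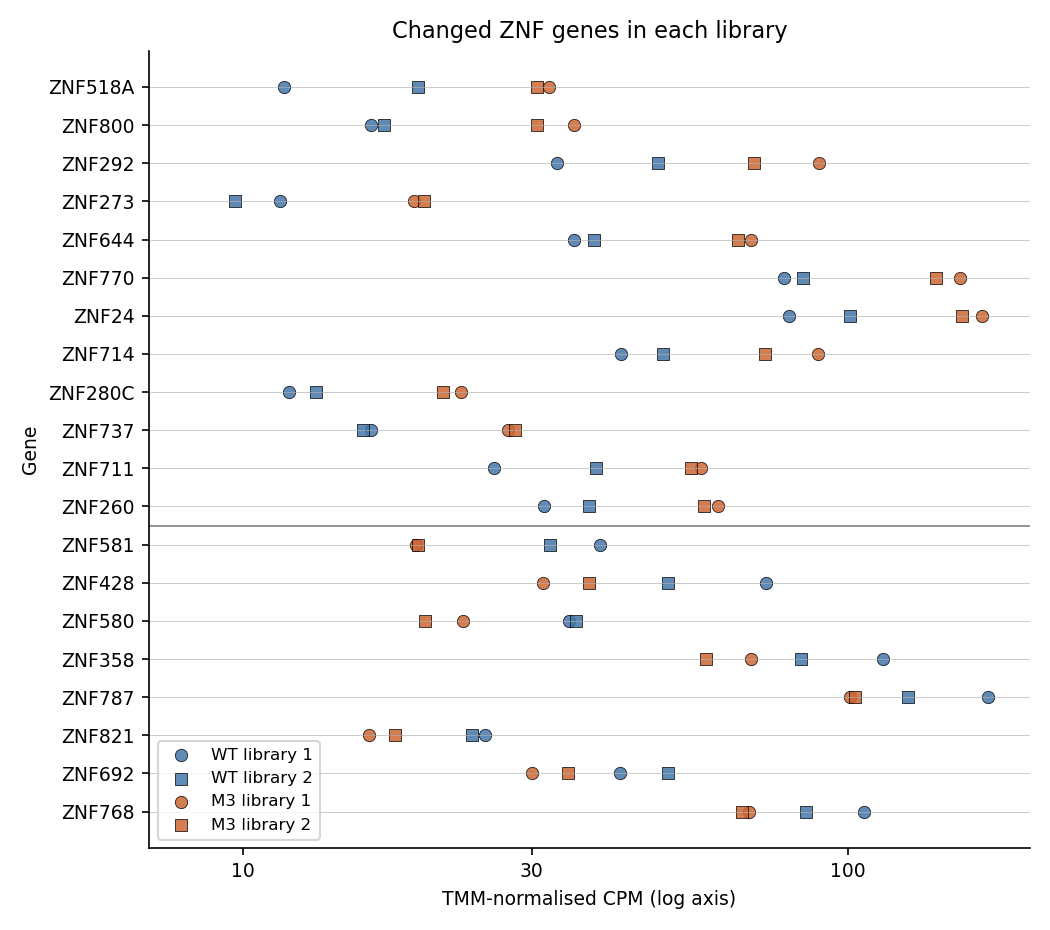
Level of the 12 ZNF genes with the largest rise (above the line) and the 8 that fell (below it) in each of the 4 libraries, as TMM-normalised CPM on a log axis; each point is 1 library. In every row both M3 points (orange) lie on 1 side of both WT points (blue), and in ZNF518A the WT libraries are far apart, at 11.7 and 19.5.

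Of the 12 genes with the largest rise, 10 had no KRAB match. ZNF518A was at 11.7 CPM in WT library 1, 19.5 in WT library 2, 32.0 in M3 library 1 and 30.7 in M3 library 2. Its WT libraries stood far apart, and both M3 libraries lay above them, with a log2 fold change of 0.99 ± 0.22 (SE; edgeR adjusted p = 0.0293). ZNF800, known as a repressor in the enteroendocrine lineage, measured 16.3 and 17.1 CPM in WT, against 35.3 and 30.6 in M3. The groups were well apart, at 0.98 ± 0.15 (adjusted p = 0.0198). ZNF292, a gene mutated in a neurodevelopmental disorder, stood at 33.1 and 48.6 CPM (WT libraries) and 89.8 and 70.1 CPM (M3 libraries). All 4 libraries differed, and the lowest M3 value lay above the highest WT value, with a log2 fold change of 0.96 ± 0.20 (adjusted p = 0.0260). ZNF644, a partner of the histone methyltransferases EHMT1 and EHMT2, had 35.3 and 38.1 CPM with WT against 69.2 and 65.8 with M3. Its libraries agreed closely within each group, and the difference was 0.88 ± 0.13 (adjusted p = 0.0198). ZNF24, a SCAN-domain repressor, measured 80.0 and 101 CPM in WT, against 167 and 154 in M3. Its log2 fold change was 0.83 ± 0.14 (adjusted p = 0.0204), with both M3 libraries high.

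ZNF711, a gene of X-linked intellectual disability whose protein binds PHF8, stood at 26.0 and 38.3 CPM (WT libraries) and 57.2 and 55.1 CPM (M3 libraries). The difference was 0.79 ± 0.18 (adjusted p = 0.0312). ZNF770, ZNF714, ZNF280C and ZNF260 rose by 0.78 to 0.85 on the log2 scale, with non-overlapping groups. Of ZNF770's exonic bases, 31.9% lie in another annotated gene, so its counts are uncertain. Without M3 library 1, ZNF518A, ZNF800 and ZNF644 still passed, at adjusted p of 0.0239, 0.0464 and 0.0497. The other 7 of these genes did not, at 0.0637 to 0.155, and all 10 passed without M3 library 2. When each library's trend with transcript length and GC content was removed, ZNF800 still passed, at 0.53 (adjusted p = 0.0347). The other 9 came to log2 fold changes of 0.15 to 0.36, and none of them passed.

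A KRAB match (at least 5 of 7 core positions in any coding transcript) was found in 140 of the 250 ZNF genes with a coding sequence. Of these 140, 15 rose and 0 fell (10.7% called, beside 15.8% of all genes), with a median log2 fold change of 0.17. The other 110 gave 20 that rose and 8 that fell (25.5% called), with a median of 0.09. Whether the classes differ was not tested. With trends removed the KRAB genes gave 4 higher and 3 lower (median -0.02), and the others 6 and 3 (median 0.0046). Counts of KRAB calls ran from 0 without M3 library 1 to 65 without WT library 2, and those of genes without KRAB from 3 to 74, at the same extremes. These are 0% and 46.4% of the KRAB genes and 2.73% and 67.3% of the others, beside 2.47% and 46.2% of all genes.

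ZNF273, whose finger and KRAB core are printed above, had 11.5 and 9.69 CPM with WT against 19.2 and 19.9 with M3. It was the KRAB gene with the largest rise, 0.89 ± 0.17 (edgeR adjusted p = 0.0224), and stayed at 0.67 (adjusted p = 0.0274) with trends removed. ZNF737 measured 16.3 and 15.8 CPM in WT, against 27.4 and 28.2 in M3, a rise of 0.79 ± 0.14 (adjusted p = 0.0215). With trends removed it also passed, at 0.58 (adjusted p = 0.0271). Both genes were tight within each group. Without M3 library 1 the adjusted p was 0.0548 for ZNF273 and 0.0734 for ZNF737, and without M3 library 2 it was 0.0424 and 0.0545. ZNF91, known to repress SVA and LINE-1 elements, has 31 finger matches. It stood at 13.7 and 19.9 CPM (WT libraries) and 32.3 and 25.8 CPM (M3 libraries), a rise of 0.77 ± 0.20 (adjusted p = 0.0404). This became 0.19 (adjusted p = 0.466) with trends removed, and the adjusted p was 0.235 without M3 library 1.

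The 8 genes that fell had no KRAB match, and 5 of them lie on chromosome 19. ZNF581 had 39.0 and 32.2 CPM with WT against 19.3 and 19.4 with M3. Both M3 libraries were low and nearly equal, and the log2 fold change was -0.87 ± 0.15 (edgeR adjusted p = 0.0207). ZNF580 measured 34.6 and 35.6 CPM in WT, against 23.1 and 20.0 in M3. The difference was -0.70 ± 0.15 (adjusted p = 0.0255). ZNF580 lies inside the RefSeq span of ZNF581, and 23.4% of ZNF581's and 15.1% of ZNF580's exonic bases lie in another gene, so both counts are uncertain. ZNF428 stood at 73.3 and 50.4 CPM (WT libraries) and 31.3 and 37.3 CPM (M3 libraries). Its WT libraries were far apart but above both M3 libraries, and the log2 fold change was -0.84 ± 0.19 (adjusted p = 0.0305).

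ZNF787, the most abundant of the 8 per kilobase, had 171 and 126 CPM with WT against 101 and 103 with M3. Its log2 fold change of -0.54 ± 0.16 passed narrowly (edgeR adjusted p = 0.0489). ZNF358, ZNF821, ZNF692 and ZNF768 were lower by log2 fold changes of -0.63, -0.53, -0.52 and -0.49, with adjusted p of 0.0433 to 0.0497. Exon overlap makes the counts of ZNF428 (27.6%), ZNF358 (34.4%) and ZNF821 (37.4%) uncertain too. Among the 173 ZNF genes without overlap or shared sequence above 10%, 31 rose and 3 fell (19.65% called, beside 15.8% of all genes). None of the 8 passed without M3 library 1 (adjusted p 0.0628 to 0.455), and ZNF581 and ZNF428 passed without M3 library 2 (0.0312 and 0.0126). With trends removed ZNF581 passed narrowly, at -0.46 (adjusted p = 0.0485), and the other 7 did not, at -0.14 to -0.41.

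The genes that rose and those that fell differed in transcript composition, which the choice of genes did not use. Transcripts of the 35 that rose held 34.7% to 47.4% G and C, with a median of 38.0%, and those of the 8 that fell 59.0% to 70.3%, with a median of 61.5%. The 2 ranges did not overlap, and the 211 genes that did not pass spanned 33.5% to 71.1%. The last codon positions held a median of 33.6% G or C in the genes that rose, 71.3% in those that fell and 47.8% in the rest, the same order as in the fingers printed above. Median transcript length was 5489 nt in the genes that rose and 1940 nt in those that fell. Promoters (250 bases before to 50 after the RefSeq start) had a median GC content of 59.8% in 32 genes that rose, 68.3% in the 8 that fell and 63.0% in 183 of the rest.

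**Figure D2:**
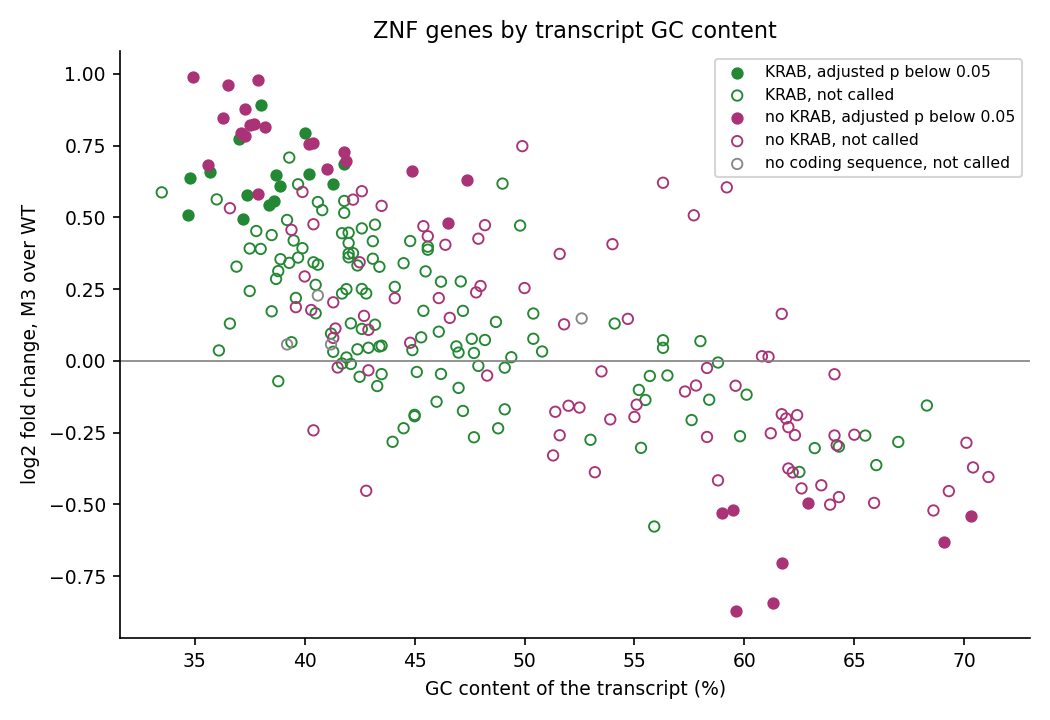
Log2 fold change (M3 over WT) of the 254 ZNF genes against the GC content of the transcript in %; colour gives KRAB class and filled points are called genes. Filled points lie at the upper left (34.7% to 47.4%) and, for genes without KRAB, at the lower right (59.0% to 70.3%).

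Across the 254 ZNF genes, log2 fold change and transcript GC content had a Pearson r of -0.73. Across the 13676 tested genes with a transcript it was -0.48. With log2 transcript length, r was 0.47 across the ZNF genes and 0.42 across the 13676. Genes are not independent replicates and share the same 4 libraries, so these values are descriptions. Below 40% GC, 23 of 53 ZNF genes rose and 0 fell, with a median of 0.53. All tested genes of that composition had a median of 0.46, and 36.1% of them rose. From 40% to 45%, 10 of 75 ZNF genes rose and 0 fell (median 0.25), beside 13.9% and a median of 0.21 for all genes. From 45% to 55%, 2 of 61 rose and 0 fell (median 0.10, beside -0.03), where 4.25% of all genes rose and 5.50% fell. From 55%, 0 of 65 rose and 8 fell, with a median of -0.26 beside -0.28 for all genes, of which 13.9% fell. Under total-count scaling these ZNF medians were 0.64, 0.37, 0.22 and -0.14, so no bin's median changed sign.

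**Figure D3:**
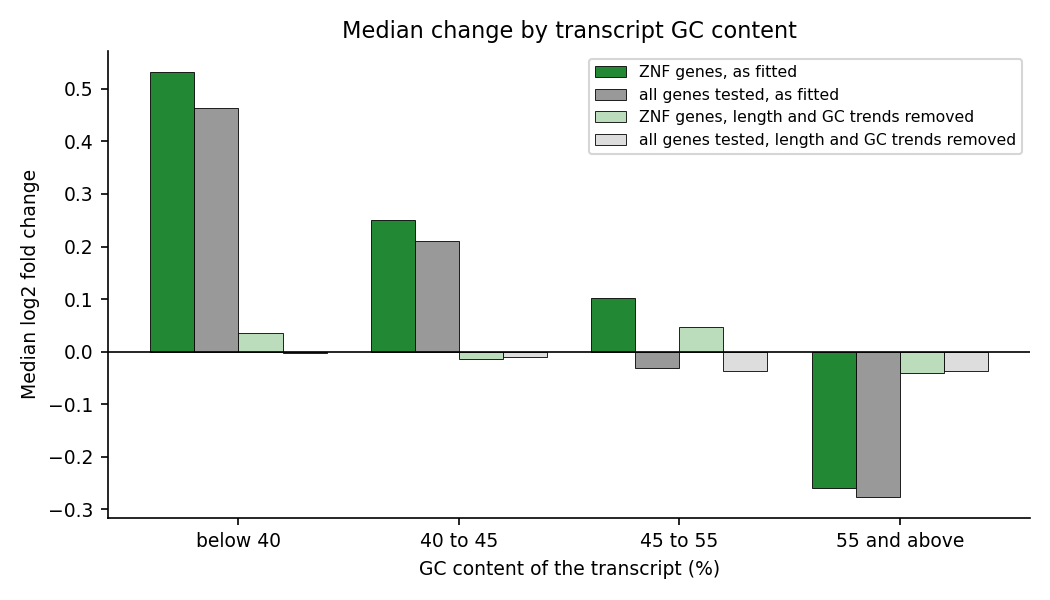
Median log2 fold change (M3 over WT) in 4 bins of transcript GC content in %, for the ZNF genes (green) and all tested genes (grey), as fitted (dark) and with length and GC trends removed (light). The dark bars run from 0.53 to -0.26 for the ZNF genes and from 0.46 to -0.28 for all genes, while the light bars lie between -0.04 and 0.05.

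With each library's trends on transcript length and GC content removed, 10 ZNF genes were called higher and 6 lower, and the median was -0.0025. The shares over the 13676 genes of that fit were 2.98% higher and 3.40% lower. Of the 43 genes called without the correction 6 were kept: ZNF273, ZNF281, ZNF35, ZNF737 and ZNF800 as higher and ZNF581 as lower. A further 5 changed sign without passing: ZNF148, ZNF107, ZNF37A, ZNF431 and ZNF92. Called with the correction alone were ZNF124, ZNF805, ZNF142, ZNF618 and ZNF536 as higher and ZNF70, ZNF250, ZNF740, ZNF320 and ZNF26 as lower. The counts of ZNF320 (78.5% exon overlap, 99.5% shared sequence) and ZNF740 (22.0% exon overlap) are uncertain. ZNF618 measured 11.8 and 14.3 CPM in WT, against 21.7 and 18.1 in M3. Its log2 fold change was 0.60 as fitted (edgeR adjusted p = 0.0508) and 0.79 with trends removed (adjusted p = 0.0197). ZNF26 stood at 19.9 and 21.1 CPM (WT libraries) and 21.4 and 20.6 CPM (M3 libraries), so the groups nearly coincided. It went from 0.03 to -0.66 (adjusted p = 0.0318) with the correction, in a transcript of 17601 nt with 41.3% GC.

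Libraries of the same group also differed along GC content and transcript length, most in WT. The log2 ratio of WT library 2 over WT library 1 had an r of -0.45 with transcript GC content across the 254 genes. Its median was 0.14 in genes below 40% GC and -0.15 in genes from 55%. The ratio of M3 library 1 over M3 library 2 had an r of -0.08, with medians of 0.04 and 0.0068. With log2 transcript length, r was 0.46 for the WT ratio and 0.26 for the M3 ratio. Of the 35 genes that rose, 28 were higher in WT library 2 than in WT library 1, and 28 were higher in M3 library 1 than in M3 library 2. Of the 8 that fell, 6 were lower in WT library 2 than in WT library 1. The part of transcript composition in the differences between WT and M3 was not tested. Removing the trends takes out any difference between libraries that runs along length or GC content, whatever its source. Bin medians of all genes near 0 follow from that step.

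**Figure D4:**
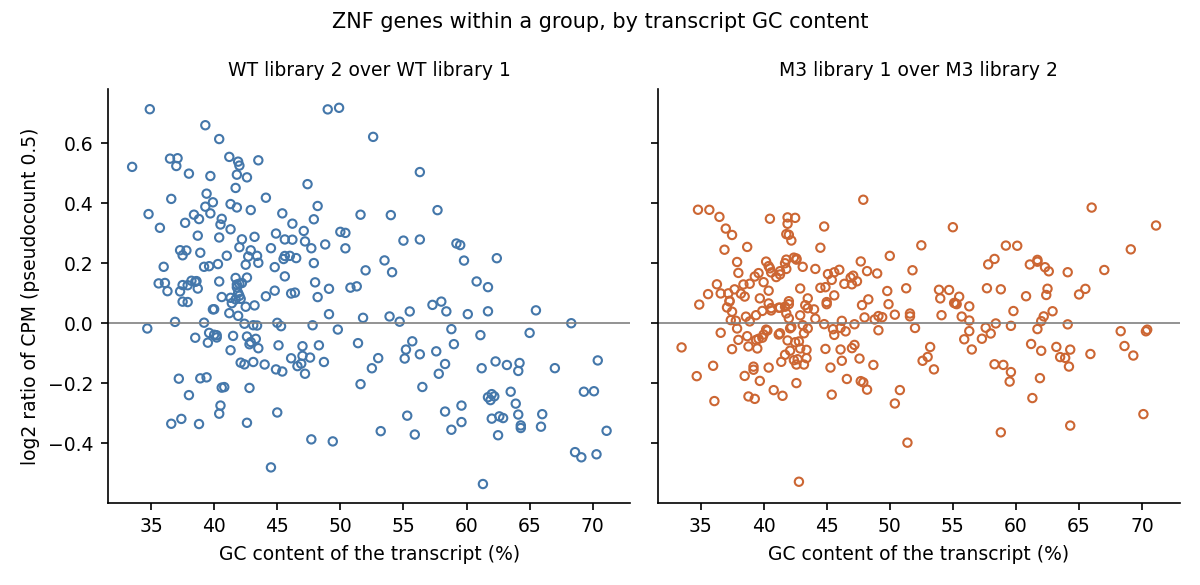
Log2 ratio of CPM (pseudocount 0.5) between the 2 libraries of a group for the 254 ZNF genes, against transcript GC content in %; left WT library 2 over WT library 1, right M3 library 1 over M3 library 2. The left cloud slopes down (r = -0.45) and the right one is nearly flat (r = -0.08).

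Chromosome 19 holds 103 of the 254 ZNF genes (40.6%, beside 6.89% of all tested genes). Of the 103, 9 rose and 5 fell (13.6% called, beside 15.8% of all genes), with a median log2 fold change of 0.13. Of the 151 on other chromosomes, 26 rose and 3 fell (19.2% called), with a median of 0.15. The 80 KRAB genes of chromosome 19 gave 6 that rose and 0 that fell, with a median of 0.17, and the 22 without KRAB gave 3 and 5, with a median of -0.28. All 975 tested genes of chromosome 19 had a median of -0.25, with 19 higher and 140 lower and a median GC content of 59.4%. The KRAB genes there had a median GC content of 42.6% and those without KRAB 60.5%. With trends removed the chromosome 19 ZNF genes gave 3 higher and 2 lower, with a median of -0.06, so the sign of the median changed. Leaving out M3 library 1 gave no call among the 103, and leaving out WT library 2 gave 47 (45.6%), beside 2.47% and 46.2% of all genes.

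**Figure D5:**
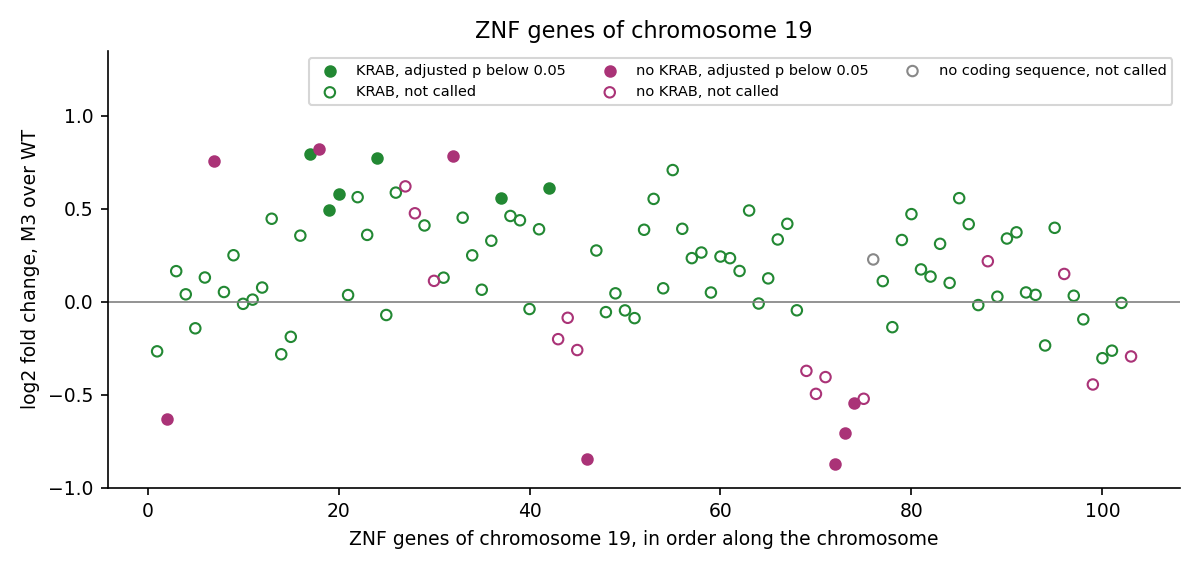
Log2 fold change (M3 over WT) of the 103 ZNF genes of chromosome 19 in their order along the chromosome; colour gives KRAB class and filled points are called genes. Called genes with positive values lie among the first 42 genes of the order, and the called genes with negative values have no KRAB match.

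Members with gaps of at most 500 kb were joined into runs, and 12 runs held at least 5 genes, 114 in all. On chromosome 7, from 64313961 to 65401136, 4 of 5 KRAB genes rose: ZNF736, ZNF107, ZNF273 and ZNF92, with a median of 0.62. On chromosome 19, from 21082203 to 21852065, ZNF714, ZNF431 and ZNF708 rose among 5 genes, with a median of 0.56. Median GC contents of the 2 runs were 38.0% and 37.2%. Of all genes tested 9.16% rose, and of those below 40% GC 36.1% did. The run from 55476617 to 56624486 on chromosome 19 went the other way: ZNF581, ZNF580 and ZNF787 fell among 10 genes, the median was -0.45 and the median GC content was 63.8%. Of all genes tested 6.63% fell, and of those from 55% GC 13.9% did. A run of 14 KRAB genes from 52013324 to 53580269 and the 25 genes from 57191500 to 58489533, both on chromosome 19, held no call, with medians of 0.24 and 0.10. With trends removed the medians were 0.15 for the chromosome 7 run and -0.06 and -0.16 for the first 2 runs of chromosome 19. Of 97 pairs of neighbouring ZNF genes within 100 kb, 73 had the same sign, and in each of the 3 pairs with both genes called the genes had the same direction (2 pairs higher, ZNF581 and ZNF580 lower). No share over neighbouring pairs of all genes is given here. Since 164 of the 254 ZNF values were positive, many pairs share a sign whatever their position. Duplicated neighbours can share sequence, so their counts are not independent.

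The number of fingers went with the same differences. The 29 genes with 0 to 3 C2H2 matches gave 3 that rose and 3 that fell, with a median of -0.04. Those with 4 to 8 matches gave 8 and 3 of 62 (median 0.07), and those with 9 to 13 gave 15 and 2 of 99 (median 0.17). The 60 with 14 or more gave 9 and 0, with a median of 0.24. Shares called in the 4 classes were 20.7%, 17.7%, 17.2% and 15.0%, beside 15.8% of all genes. Median GC content over the same classes was 48.2%, 47.7%, 44.9% and 43.0%, and with trends removed the medians were -0.04, -0.0025, 0.01 and -0.05.

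A list of 32 ZNF genes with described functions had 29 among the 254. Of these, 9 rose (31.0%) and 0 fell, beside 9.16% and 6.63% of all genes. The median was 0.34, becoming 0.09 with trends removed. Those that rose were ZNF24, ZNF91, ZNF292, ZNF644 and ZNF711, described above, and ZNF148, ZNF281, ZNF462 and ZNF451. ZNF281, a GC-box binding factor studied in stem cells, had 37.9 and 49.6 CPM with WT against 78.1 and 67.3 with M3. It rose by 0.73 ± 0.16 (edgeR adjusted p = 0.0293) and passed narrowly with trends removed, at 0.41 (adjusted p = 0.0493). Without M3 library 1 its adjusted p was 0.206. ZNF148, a related GC-box binding factor, measured 42.7 and 46.8 CPM in WT, against 74.4 and 69.5 in M3. Its rise of 0.68 ± 0.13 (adjusted p = 0.0224) became -0.17 with trends removed, in a transcript of 9651 nt with 35.6% GC. ZNF462, of neural development, and ZNF451, a SUMO ligase, rose by 0.48 (adjusted p = 0.0492) and 0.58 (adjusted p = 0.0306). Without M3 library 1 the adjusted p was 0.187 for ZNF148, 0.347 for ZNF462 and 0.237 for ZNF451. Without M3 library 2 it was 0.0589, 0.274 and 0.164.

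Among the developmental genes that did not pass, ZNF536, a repressor in neuronal differentiation, stood at 16.7 and 23.9 CPM (WT libraries) and 31.6 and 31.4 CPM (M3 libraries). Its log2 fold change was 0.62 (edgeR adjusted p = 0.0519) and 0.61 with trends removed (adjusted p = 0.0329), but exon overlap of 13.4% makes its counts uncertain. ZNF423 and ZNF521, partners of EBF1, had log2 fold changes of 0.15 and 0.40 (adjusted p = 0.488 and 0.105). ZNF217, an oncogene of chromosome 20, had 57.7 and 84.2 CPM with WT against 105 and 102 with M3, with 0.54 (adjusted p = 0.0667). ZNF592, ZNF687 and ZNF532, which form a complex with ZMYND8, had 0.13, -0.02 and 0.43, and none passed. ZNF335 and ZNF503 had 0.01 and -0.23.

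The other listed genes of chromatin, promoters, RNA and ribosomes named next did not pass. ZNF274, which brings SETDB1 to the ends of ZNF genes, measured 20.2 and 22.0 CPM in WT, against 19.9 and 23.3 in M3. The groups overlapped, at 0.03 ± 0.16 (edgeR adjusted p = 0.902). ZNF10 (KOX1), source of the KRAB domain used in CRISPR interference, and ZNF445, of genomic imprinting, had 0.29 and 0.28 (adjusted p = 0.243 and 0.186). ZNF143, a promoter-binding activator, had 0.34 (adjusted p = 0.154). ZNF598, the ubiquitin ligase of collided ribosomes, and ZNF622, of large ribosomal subunit maturation, were the lowest of this list, at -0.26 and -0.39 (adjusted p = 0.156 and 0.109). ZNF638 and ZNF326, RNA-binding proteins, had 0.46 and 0.29, ZNF384 -0.20 and ZNF263 0.07, and none passed. Exon overlap or shared sequence makes the counts of ZNF10, ZNF263, ZNF384, ZNF503, ZNF532, ZNF598 and ZNF687 uncertain. The list was chosen with earlier results known, so its counts are a description.

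Per kilobase of transcript, ZNF664 was the highest, at a mean of 85.7 CPM per kb, where the median ZNF gene had 7.52. It stood at 379 and 417 CPM (WT libraries) and 481 and 474 CPM (M3 libraries). Its log2 fold change of 0.26 did not pass (edgeR adjusted p = 0.166). ZNF207 (BuGZ), of spindle assembly, followed at 71.0 CPM per kb, then ZNF787 at 65.0, ZNF124 at 46.9 and ZNF316 at 45.8. ZNF358 (41.7), ZNF512 (39.1) and ZNF146 (36.8) came next. Of these 8, ZNF787 and ZNF358 passed, both lower. ZNF124 had 52.0 and 51.7 CPM with WT against 73.8 and 64.7 with M3, with 0.42 as fitted (adjusted p = 0.0602) and 0.50 with trends removed (adjusted p = 0.0245). The counts of ZNF207, ZNF512 and ZNF146 are uncertain because of shared sequence or exon overlap.

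The co-repressors through which KRAB proteins act, and other heterochromatin factors, formed a list of 31 genes. Of these, 3 rose and 1 fell (12.9% called, beside 15.8% of all genes). The list's median log2 fold change was 0.04, -0.0029 with trends removed. TRIM28, the KRAB co-repressor, measured 1165 and 1034 CPM in WT, against 841 and 803 in M3. Both M3 libraries lay below both WT libraries, but -0.42 ± 0.14 did not pass (edgeR adjusted p = 0.0752). SETDB1, its histone methyltransferase partner, stood at 99.1 and 103 CPM (WT libraries) and 95.2 and 79.7 CPM (M3 libraries), with -0.21 (adjusted p = 0.291). ATF7IP, which stabilises SETDB1, had 70.4 and 90.8 CPM with WT against 147 and 115 with M3, a rise of 0.70 ± 0.17 (adjusted p = 0.0335). TRIM33 rose by 0.97 (adjusted p = 0.0198), SMARCAD1, a remodeller bound by TRIM28, by 0.67 (adjusted p = 0.0360), and MTA1 fell by 0.43 on the log2 scale (adjusted p = 0.0431). None of these 4 passed with trends removed. Without M3 library 1, TRIM33 alone of the 4 passed (adjusted p = 0.0412), and without M3 library 2 TRIM33 and ATF7IP did (0.00117 and 0.0152).

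Zinc finger genes with other symbols were compared in the same fit. The ZFP, ZSCAN, ZKSCAN and ZBTB genes with a mean count of at least 200 numbered 46. Of these, 10 rose and 2 fell (26.1% called, beside 15.8% of all genes), with a median of 0.32. The 26 ZBTB genes, whose proteins join a BTB domain to the fingers, gave 8 of these rises and both falls, and the 8 ZSCAN genes gave no call. With trends removed the 46 gave 1 higher and 1 lower (median 0.03). The 212 tested ZNF genes below the threshold gave 11 higher and 2 lower (6.13% called). Their median was 0.14, near the 0.13 of the 254.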

How the data were processed

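The deposited values are raw counts of reads by gene symbol, not normalised by the authors, in a table for each library of poly(A) RNA. The submitters' processing notes name hg38, HISAT2 2.1.0, HTSeq and DESeq2. Neither the annotation nor the strand setting of the counting step is stated, so sense and antisense reads at overlapping genes cannot be separated. Groups and replicate numbers came from the labels. M3 was compared with WT across all genes by edgeR 4.0.16 (R 4.3.3): filterByExpr, TMM, a robust quasi-likelihood F test and Benjamini-Hochberg adjustment at 0.05. The SE is the log2 fold change over the root of F, and the biological coefficient of variation was 0.124. The fitting script was tested on simulated data. Depths limit precision: counts under 100 did not occur among the ZNF genes.

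Transcript length, GC content, coding sequences and exon overlap came from GENCODE release 29, gene positions and promoters from RefSeq GRCh38.p14. A C2H2 match is C-N2-4-C-N12-H-N3-5-H, with N any residue. Counts are called uncertain where over 10% of exonic bases lie in another gene or over 10% of 50-base words occur in another gene's transcripts.

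The genes and lists were chosen with earlier results of these data known. Named genes are up to 12 with the largest rise and 12 with the largest fall among called genes with non-overlapping groups, the 8 highest per kilobase, the 3 on each side of the threshold, the function list, up to 4 changed co-repressors, TRIM28, SETDB1 and IWS1. Others were named after their values were seen. Alternatives were median-of-ratios, upper-quartile and total-count scaling, no filter or a mean count of at least 50, a replicate block, each library left out, removal of length and GC trends (splines with 5 degrees of freedom per library, as offsets, for 13676 genes), DESeq2 1.42.0, limma-voom (limma 3.58.1), an adjusted p of 0.01, a 2-fold threshold and a mean count of 100 or 500 for membership. Crossed pairing and the uncorrected fit on genes with a transcript were added after seeing the data. Runs of neighbouring genes were also formed after seeing the data. Marker lists leave out genes that are not reported here.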

Additional observations from a re-analysis of the deposited data

Results flagged for a closer look

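Reads that the authors' counting assigned to no annotated gene lie outside the comparison of genes. They made up 27.5% of counted reads in M3 library 1 and 25.6% in M3 library 2, above the 23.3% and 23.2% of the WT libraries. No ZNF count includes these reads, and their part in the differences between ZNF genes was not tested.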

How the results depend on the processing

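Each comparison rests on 2 libraries a group, and which libraries enter moved the counts most; the cause was not tested. The 2 WT libraries differed more than the 2 M3 libraries, with a chi-square of read counts per degree of freedom of 22.4 beside 4.45. Fits with 1 library left out take the spread of a group's lone library from the other group, so from M3 without 1 WT library. Over the 4 such fits, ZNF genes called higher ran from 3 to 99 and lower from 0 to 41, while 2.47% to 46.2% of all genes were called. Called KRAB genes ran from 0 to 65, genes without KRAB from 3 to 74, chromosome 19 genes from 0 to 47 and the rest from 3 to 93. Called co-repressors ran from 1 to 18 and other zinc finger families from 3 to 30. Medians moved less: 0.13 to 0.23 for KRAB genes, 0.0595 to 0.11 without KRAB, 0.11 to 0.16 on chromosome 19, 0.0903 to 0.22 elsewhere, 0.0033 to 0.10 for co-repressors and 0.17 to 0.38 for other families. IWS1 ran from 0.60 to 0.69, and lost its call without either M3 library. Of the 43 called ZNF genes, 43 were kept when either WT library was left out, 3 when M3 library 1 was and 20 when M3 library 2 was.

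Removing length and GC trends gave 10 ZNF genes higher, beside 872 of 13676 genes called in either direction. Changed were 7 KRAB genes, 9 without KRAB, 5 on chromosome 19, 11 elsewhere, 1 co-repressor and 2 of other families. The medians became -0.0025 for all ZNF genes, -0.0202 for KRAB genes, 0.0046 without KRAB, -0.0623 on chromosome 19, 0.028 elsewhere, -0.0029 for co-repressors and 0.0281 for other families. Among ZNF genes called with or without the correction, signs turned for ZNF148 (-0.17), ZNF107 (-0.10), ZNF37A (-0.11), ZNF431 (-0.36), ZNF92 (-0.035) and ZNF26 (-0.66). Signs also turned in ZNF genes called in neither fit, such as ZNF445 (0.28 to -0.29) and ZNF638 (0.46 to -0.07). The cause was not tested.

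No label says whether same-numbered libraries are paired. Their deviations from the group means correlated at -0.14 across genes, which cannot settle pairing with 4 libraries. With the replicate block, 41 ZNF genes were higher and 5 lower, beside 2315 of 14141 genes called in that fit. Of the 43 calls 36 were kept, the median was 0.13 and IWS1 stayed at 0.65. With the block and trends removed together, 11 were higher, beside 1090 of 13676 genes called in either direction. Changed were 8 KRAB genes, 9 without KRAB, 4 on chromosome 19, 13 elsewhere and 2 of other families. The medians were -0.0031, -0.0201, 0.0024, -0.0589, 0.0267, -0.0044 and 0.0283 in the same order as above. In that fit the 6 called genes named above had turned signs again, with ZNF148 at -0.17, ZNF107 at -0.10, ZNF37A at -0.11, ZNF431 at -0.35, ZNF92 at -0.038 and ZNF26 at -0.66. A crossed pairing, tried after seeing the data, gave 84 higher and 28 lower, beside 5314 of 14141 genes called in that fit. It called 49 KRAB genes, 63 without KRAB, 38 on chromosome 19, 74 elsewhere, 11 co-repressors and 27 of other families.

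Total-count scaling gave 23 higher and 1 lower, beside 1120 of 14141 genes called in that fit. It called 8 KRAB genes, 16 without KRAB, 6 on chromosome 19, 18 elsewhere, 1 co-repressor and 6 of other families. Its medians were 0.25, 0.29, 0.21, 0.25, 0.25, 0.15 and 0.43. No count filter gave 62 higher and 20 lower, beside 3945 of 20290 genes called in that fit. It called 28 KRAB genes, 54 without KRAB, 25 on chromosome 19, 57 elsewhere and 8 co-repressors. At an adjusted p below 0.01, or at 2-fold or more, 0 ZNF genes in any class and 0 co-repressors were called, and 0 and 2 of other families. At 2-fold or more 353 of all 14141 genes were called. The number of all genes below 0.01 is not given here, so the 0 at that threshold is no result about the ZNF genes. DESeq2 called 7 co-repressors, beside 2649 of 14141 genes. It kept 41 of the 43 ZNF calls, limma-voom kept 40, median-of-ratios scaling 41 and upper-quartile scaling 35. ZNF genes with a mean count of at least 500 gave 19 higher and 5 lower, which are part of the 35 and 8. Neither the number of such genes nor the share of all genes at that level is given here, so these counts show no change in the share called.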
